A study of Mus musculus with 12 samples.

Results

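The let-7 passenger strands are the mature miRNAs cut from the arm of a let-7 hairpin opposite to the arm that yields the let-7 guide strand, and the TaqMan OpenArray marks such assays with #. Members were chosen by name as every assay that began, after its species prefix, with let-7 or miR-98 and carried this mark, whatever its values. The rule found 7 of 619 miRNA assays with a threshold cycle (Ct) in at least 1 sample, and no assay for a passenger strand of let-7b or miR-98. Of these, 6 belonged to the 335 miRNAs analyzed, whose Ct was under 28 in every one of the 12 samples, namely mmu-let-7a#_002478, mmu-let-7d#_001178, mmu-let-7g#_002492, mmu-let-7c-1#_002479, hsa-let-7i#_002172 and hsa-let-7e#_002407. The assay hsa-let-7f-1#_002417 had a Ct in 7 of 12 samples and is described by its values and by a test of how often it had a Ct. Below, assays are called by the name without prefix and number.

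The study asked how miRNA levels in the hippocampus depend on the P2X7 receptor, under physiological conditions and after status epilepticus. The 4 groups were wt and P2rx7-/- mice (C57BL/6, aged 8 weeks, lacking an exon of P2rx7 in the knockout), each given either vehicle (phosphate-buffered saline, control) or kainic acid (KA) into the amygdala, and post-SE stands for mice post-status epilepticus. Isoflurane anesthesia, a guide cannula and later lorazepam were common to all groups, and ipsilateral hippocampi were taken 8 h after the injection. Each group held 3 samples, each pooled from the hippocampi of 2 animals, so that single animals could not be compared.

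A miRNA hairpin is cut by Dicer into a duplex, of which Argonaute usually keeps the guide strand, while the passenger strand is degraded and stays rare. The let-7 guides are abundant in adult brain, where they hold back targets that are active in early development, and all of them share a seed, the stretch of bases that pairs with target mRNAs. The guides let-7a, let-7c and let-7f are made from more than 1 hairpin, so that their assays sum transcripts beyond that of a single passenger strand.

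The mature sequences are shown because most of the passenger strands, unlike the guides, differ from each other in the seed. They are mouse sequences of RefSeq (GRCm38.p6), matched by name for all 7 assays, also for those that carry the human prefix, and capitals mark the seed (bases 2 to 8 from the 5' end). The name let-7a# does not say which let-7a hairpin is measured, and both candidates are given. The first group shares the seed of let-7a-1-3p and let-7f-1-3p, the others have a seed each.
mmu-let-7a-1-3p: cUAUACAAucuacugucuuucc
mmu-let-7f-1-3p: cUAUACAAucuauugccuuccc
mmu-let-7a-2-3p: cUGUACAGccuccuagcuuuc
mmu-let-7d-3p: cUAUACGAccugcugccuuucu
mmu-let-7g-3p: aCUGUACAggccacugccuugc
mmu-let-7c-1-3p: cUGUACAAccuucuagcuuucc
mmu-let-7i-3p: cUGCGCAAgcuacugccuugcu
mmu-let-7e-3p: cUAUACGGccuccuagcuuucc
For comparison, the guides of the members with the lowest and the highest mean Ct, let-7a# and let-7e#, are given, and all 9 let-7 and miR-98 guides have the same seed.
mmu-let-7a-5p: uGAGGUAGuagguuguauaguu
mmu-let-7e-5p: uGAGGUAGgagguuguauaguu

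The 8 passenger sequences held 7 seeds. Any pair of them differed by at least 3 single-base edits (median 7, highest 11), whereas the 7 guides of the same hairpins differed from each other by as little as 1 edit (median 3, highest 6). Apart from the let-7a-1-3p seed, which is also that of let-7b-3p, let-7c-2-3p and miR-98-3p, no passenger seed recurred among the 1679 mouse mature miRNAs of the table. The mature sequence of let-7a-1-3p is identical to that of let-7c-2-3p, so an assay for the former would read both. The shares of G and C ran from 36.4% in let-7a-1-3p to 59.1% in let-7g-3p and let-7i-3p.

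The hairpins of let-7a-1 (mature strand at chr13:48538188-48538209, minus strand), let-7f-1 (chr13:48537833-48537854, minus strand) and let-7d (chr13:48536024-48536045, minus strand) lie within 10 kb of each other. The let-7c-1-3p strand (chr16:77599717-77599738, plus strand) lies beside miR-99a, let-7e-3p (chr17:17830411-17830432, plus strand) beside miR-125a and within the span of the protein-coding gene Spaca6, and let-7a-2-3p (chr9:41536777-41536797, plus strand) beside miR-100 in the long non-coding RNA Mir100hg. For let-7g-3p (chr9:106178902-106178923, plus strand, within the span of the protein-coding gene Wdr82) and let-7i-3p (chr10:122985642-122985663, minus strand) there is no other miRNA hairpin within 10 kb.

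One sample stood farthest apart before any comparison. Over the 335 miRNAs, wt control replicate 1 had rank correlations between 0.660 and 0.737 with the other 11 samples, and 72 of its normalized values lay over 2 cycles from the median of the others, against 3 to 28 in each other sample. They describe the sample and carry no test, as miRNAs are no replicates. Its repeated wells of the control RNA snoRNA135 had an SD of 3.63 cycles, where the median SD over the samples was 0.281. To a lesser degree, P2rx7-/- control replicate 1 stood apart, with 28 values over 2 cycles away and a highest rank correlation of 0.909. In wt post-SE replicate 1 there were 24 such values, and the SD of snoRNA135 was 1.38 cycles. FC calls of members relative to wt controls are given with and without wt control replicate 1, while Ct values, strand differences and the limma tests include it. In the hippocampal samples the neuronal miR-128a and miR-137 had a Ct between 12.9 and 17.9 in all 12 samples and miR-124a in 11, but miR-138 had a Ct in 10 and miR-9 in only 4. The muscle miR-133a also had a Ct between 14.8 and 17.7 in all samples, while the muscle miR-1 had a Ct of 19.7 to 25.5 and of 20.4 to 25.2 by its 2 assays, and the liver miR-122 one between 22.1 and 27.9, in 11 samples each. The myeloid miR-142-3p and miR-223 had a Ct in all samples, the endothelial miR-126 in 10 and the red blood cell miR-144 in 8. Some markers differed in their group means, given for wt controls, P2rx7-/- controls, wt mice post-SE and P2rx7-/- mice post-SE as -ΔCt, a normalized log2 level. The oligodendrocyte miR-338-3p had 0.83, -0.53, -0.015 and -0.61 (lowest unadjusted limma p over the comparisons 0.0149), miR-219 had 0.12, 0.68, 0.98 and 1.65 (0.145), and the red blood cell miR-451 had 1.77, 1.21, 0.13 and 0.81 (0.0544). The muscle miR-133a had 3.26, 2.24, 2.77 and 2.86 (lowest unadjusted limma p 0.0737), and the neuronal miR-137 had 3.32, 4.21, 4.74 and 4.32 (0.114). The neuronal miR-128a had 4.5, 4.85, 4.55 and 4.95 (0.146). With missing values, miR-124a had 4.22, 3.92, 4.63 and 4.31, lower in P2rx7-/- than in wt controls, and miR-138 had 1.54, 8.54, 8.20 and 8.62. The myeloid miR-223 had 5.35, 5.52, 4.63 and 5.55 (lowest unadjusted limma p 0.147), and 2.75, 3.00, 2.34 and 2.95 (0.344) by another assay. The myeloid miR-142-3p had 1.05, 1.23, 1.58 and 1.48 (0.373). After adjustment 0 of the 335 miRNAs passed.

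The first question was how much of each passenger strand was measured. Fewer cycles to the threshold stand for more template, roughly 2 times per cycle if assays amplify alike. This was not tested, so the order of assays describes their Ct and is no order of copies. The passenger let-7a# had the lowest Ct of the 6, 19.8 ± 0.325 (SD over 12 samples), followed by let-7d# at 20.9 ± 0.592. Next came let-7g# at 22.3 ± 0.373 and let-7c-1# at 22.4 ± 0.461, and last let-7i# at 24.4 ± 0.649 and let-7e# at 25.3 ± 0.684. The 6 strands thus spanned 5.46 cycles.

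Within samples, the order of these neighbours held to different degrees. The step from let-7d# to let-7g# (1.44 ± 0.577 cycles) and that from let-7c-1# to let-7i# (2.01 ± 0.701 cycles) had the same sign in 12 of 12 samples. The step from let-7a# to let-7d# (1.02 ± 0.639 cycles) held in 11 of 12. The mean step was smaller than its SD over samples for let-7g# and let-7c-1# (0.14 ± 0.392 cycles, 8 of 12 samples). The same held for let-7i# and let-7e# (0.85 ± 0.907 cycles, 9 of 12). Differences in mean Ct between assays were not tested.

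Against the other miRNAs, the members had a higher Ct than most. By mean Ct they took ranks 200, 232, 280, 284, 320 and 331 of 335, where the median miRNA had a mean Ct of 19.0. Among the 65 passenger assays analyzed (median 20.8), they took ranks 24, 35, 44, 46, 60 and 65, the last being let-7e#, the passenger strand with the highest mean Ct of all.

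The matching guides all had a far lower Ct. For the strand difference, the Ct of the guide was subtracted from that of the passenger strand in the same sample, which needs no normalizer. It was above 0 in every sample with both values, in all 6 pairs. The guide let-7d had no Ct in wt control replicate 1, and the guide let-7i none in wt control replicate 1 and P2rx7-/- control replicate 1, so these pairs rest on 11 and 10 samples.

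The pair let-7a had the smallest mean of the 6 pairs, with 4.62, 4.59 and 4.09 cycles in wt controls, 7.31, 3.93 and 3.33 in P2rx7-/- controls, 9.73, 5.50 and 4.56 in wt mice post-SE and 4.67, 3.62 and 3.79 in P2rx7-/- mice post-SE. A single sample in each of P2rx7-/- control and wt post-SE stood far above the rest, and the other 10 values lay between 3.33 and 5.50. The pair let-7d followed at 5.40 ± 1.00 cycles (SD, n = 11), between 3.86 and 7.06.

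The pairs let-7c-1 and let-7g had intermediate means, at 7.77 ± 0.594 cycles (between 6.71 and 8.63) and 8.60 ± 0.757 cycles (between 7.26 and 10.3). The largest means were those of let-7i, 10.8 ± 0.711 cycles (n = 10, between 9.49 and 11.8), and let-7e. The pair let-7e gave 11.8, 11.9 and 12.6 cycles in wt controls, 11.8, 12.4 and 7.46 in P2rx7-/- controls, 11, 12.6 and 11.97 in wt mice post-SE and 12.3, 12.7 and 11.3 in P2rx7-/- mice post-SE. P2rx7-/- control replicate 3 alone lay far below the other 11 samples.

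The order of the pairs held in 11 of 11 samples between let-7d and let-7c-1 (2.41 ± 0.696 cycles) and in 11 of 12 between let-7c-1 and let-7g (0.83 ± 0.654 cycles). It held in 9 of 10 between let-7g and let-7i (2.27 ± 1.06 cycles). The mean step was smaller than its SD over samples for let-7a and let-7d (0.39 ± 2.12 cycles, 8 of 11 samples). The same held for let-7i and let-7e (0.85 ± 1.60 cycles, 8 of 10).

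**Figure D1:**
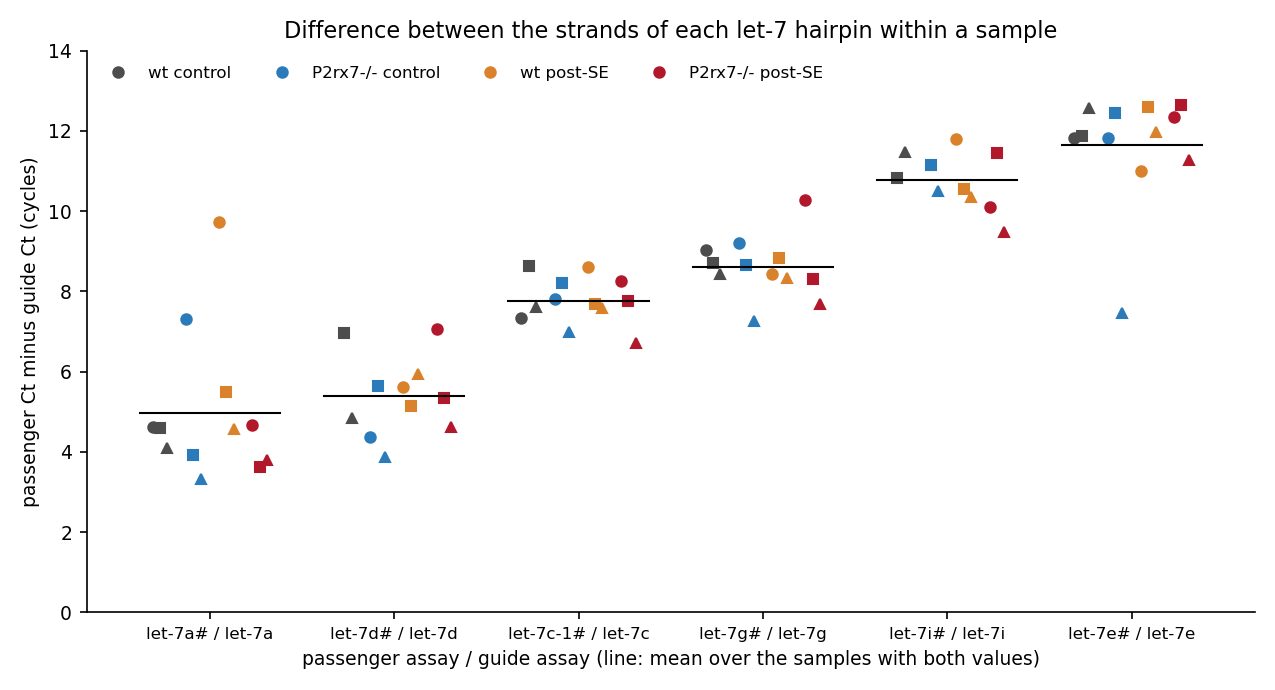
Passenger Ct minus guide Ct in cycles (y axis) for the 6 let-7 pairs (x axis), 1 point per sample, coloured by group, with circles, squares and triangles for replicates 1, 2 and 3 and a line at the mean. All points lie above 0, from 3.33 cycles in the pair let-7a to 12.7 cycles in the pair let-7e, and single points stand apart in let-7a, let-7g and let-7e.

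The spread between the pairs lay mainly on the passenger side. The mean Ct of the 6 guides ran from 13.6 to 15.5, a range of 1.93 cycles, against 5.46 cycles for the passenger strands. Within single samples the passenger strands spanned 4.66 to 6.40 cycles (median 5.43) and the guides 1.86 to 5.35 (median 2.50), and the passenger range was the wider one in 11 of 12 samples. The exception was wt post-SE replicate 1, where the guide let-7a had a Ct of 10.1. In wt control replicate 1 and P2rx7-/- control replicate 1 the range rests on 4 and 5 guides, and missing values narrow it there. Of the 10 samples with all guides, the passenger range was wider in 9.

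Among all 62 guide and passenger pairs on the array with both strands in at least 2 samples of every group, the median strand difference was 4.98 cycles, and the guide had the lower mean Ct in 52. Some of these pairs share a guide assay. The 6 let-7 pairs had a median of 8.18 cycles, and ranked 5, 7, 11, 18, 29 and 32 of 62 from the largest difference down. The 56 other pairs had a median of 4.62 cycles, and ran from -6.03 to 12.3.

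In single samples that stood apart in a strand difference, the guide assay was far from its other values, and in let-7e the passenger strand was as well. The guide let-7a had a Ct of 12.5 in P2rx7-/- control replicate 1 and 10.1 in wt post-SE replicate 1, and of 15.1 to 16.3 in the other 10 samples, while let-7a# stayed between 19.3 and 20.6 in all 12. The guide let-7e had a Ct of 16.4 in P2rx7-/- control replicate 3 and of 12.8 to 14.8 elsewhere, and let-7e# had its lowest Ct, 23.9, in that sample, so that both strands moved there, in opposite directions (by -2.80 and 1.97 from the median on the normalized log2 scale). The guide let-7g had a Ct of 11.96 in P2rx7-/- post-SE replicate 1 and of 13.1 to 14.6 elsewhere, against 21.8 to 22.8 for let-7g# in all samples. Such isolated Ct values could be failed reads, which cannot be checked without amplification curves, and the strand differences and correlations of these pairs rest on them in part.

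For levels between samples, the mean Ct of a sample over the 335 miRNAs was subtracted and the sign turned (-ΔCt, on a log2 scale, higher means more). Of 72 such values of the passenger strands, 0 lay over 2 from the median of their assay, and the largest deviation was 1.97. Of 69 values of the matching guides, 3 did, up to 5.88. The median deviations were alike at 0.28 and 0.24, so the strands differed in the few extreme values.

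**Figure D2:**
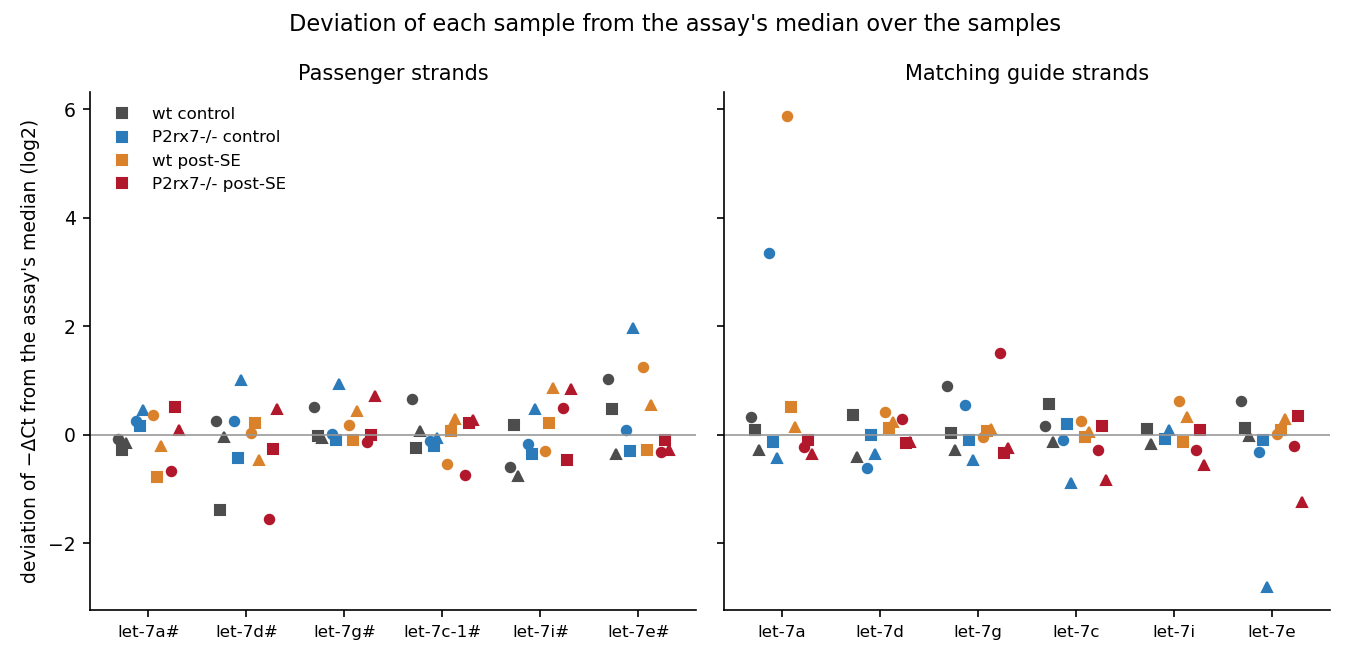
Deviation of the normalized level (-ΔCt, log2) of each sample from the median of its assay (y axis) for the 6 passenger strands (left) and their guides (right), with group colours and replicates 1, 2 and 3 as circles, squares and triangles. The passenger values stay within 1.97 of the median, and 3 guide values, 2 of let-7a and 1 of let-7e, lie over 2 away.

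The spread between samples of a group, pooled over the 4 groups, was 0.42 for let-7a#, let-7c-1# and let-7g#, 0.56 for let-7i#, 0.78 for let-7d# and 0.80 for let-7e#. The median over all 335 miRNAs was 0.64. The 6 passenger strands had a median of 0.49, and the 7 let-7 and miR-98 guides among the 335 had one of 0.75. These medians do not compare the strands of the same pairs. The guides include let-7b, let-7f and miR-98 and leave out let-7d and let-7i. Of the matching guides, let-7c had 0.42, let-7g 0.65, let-7e 0.87 and let-7a 1.93. These SDs are on the log2 scale and are descriptions.

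Over the 12 samples, passenger and guide levels were not seen to move together in the 4 pairs with complete values. For let-7a the Pearson correlation was 0.308 (permutation p = 0.359, Spearman rho -0.0769, permutation p = 0.821), and -0.532 without the 2 samples farthest from the median of the guide. For let-7e it was -0.425 (permutation p = 0.147, Spearman rho 0.196, permutation p = 0.543), and 0.492 without 2 such samples. Both signs thus rest on those samples.

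For let-7c-1 the correlation was -0.0781 (permutation p = 0.809, rho -0.154, permutation p = 0.635) and 0.108 without the 2 farthest samples. For let-7g it was -0.274 (permutation p = 0.404, rho -0.280, permutation p = 0.379) and -0.419 without them. Adjusted over the 4 pairs, the lowest p of the Pearson correlations was 0.538.

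The assay let-7f-1# differed from the other members by its missing values. All wt controls gave a Ct (20.3, 19.3 and 24.6), as did P2rx7-/- control replicates 1 and 2 (21.4 and 18.1). After status epilepticus it had a Ct of 22.2 in wt replicate 1 and of 19.1 in P2rx7-/- replicate 1. It thus had a Ct in 5 of 6 control samples and 2 of 6 post-SE samples (Fisher's exact test, two-sided, p = 0.242).

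Where present, its Ct spanned 6.55 cycles, from 18.1 to 24.6, a wider range than the 0.97 to 2.19 cycles of the 6 complete members. The guide let-7f had a Ct in all 12 samples, between 15.6 and 18.2. The strand difference in the 7 samples with both values was 3.35 ± 2.39 cycles (SD), between 0.559 and 7.95. This mean was smaller than in each of the 6 pairs above. Of the 98 passenger assays with a Ct in any sample, 33 lacked a Ct in at least 1 sample or were not below 28 there.

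The next comparison was between P2rx7-/- and wt mice under control conditions, which asks for a difference without seizures. With the cut-offs of the study's methods, fold changes (FC) of the 3 samples were taken relative to the mean of the reference group, and their own mean had to exceed 1.5 for a call up, or to be under 0.6 for a call down. By this rule let-7d# was called up, 1 of 6 members, against 21.2% of all 335 miRNAs, and 0 members were called down, against 15.5%. The share is close to the background and is no result about the members. In whole tissue, fewer cells with a miRNA and less of it per cell cannot be told apart.

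In wt controls let-7d# had normalized levels of -1.58, -3.21 and -1.86, and P2rx7-/- controls had -1.57, -2.25 and -0.82. The groups overlapped, with wt control replicate 2 lowest and P2rx7-/- control replicate 3 highest. The FCs were 1.56, 0.976 and 2.64, with a mean of 1.73 ± 0.844 (SD, n = 3). The log2 difference was 0.67 with a standard error (SE) of 0.61 (limma over all miRNAs and samples, adjusted p = 0.761). The mean FC was 2.18 without wt control replicate 1, and the call was lost without wt control replicate 2 (1.22) or P2rx7-/- control replicate 3 (1.27), with snoRNA202 as normalizer (1.42) and with the methods' two-group test as a further condition.

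The member with the clearest separation was let-7a#. It had levels of -1.02, -1.22 and -1.10 in wt controls and of -0.68, -0.78 and -0.48 in P2rx7-/- controls. All 3 knockout samples were higher than all 3 wt samples, 1 of 6 members against 14% of all miRNAs whose groups did not overlap in either direction. The mean FC of 1.38 ± 0.152 (SD, n = 3) was below the threshold. The exact permutation test gave p = 0.1, the smallest that 3 samples against 3 allow, and limma gave a log2 difference of 0.46 (SE 0.38, adjusted p = 0.749), as it pools the spread over all 4 groups. Without wt control replicate 1 the mean FC was 1.44.

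In the same comparison let-7e# had FCs of 0.817, 0.620 and 3.00 in the P2rx7-/- control samples, with a mean of 1.48 just under the threshold. The mean rested on P2rx7-/- control replicate 3, without which it was 0.721. It passed the threshold when any of 5 other samples was left out, namely wt control replicate 1 (1.87) or 2 (1.53), P2rx7-/- control replicate 1 (1.81) or 2 (1.91), or P2rx7-/- post-SE replicate 2 (1.52). The levels of let-7c-1# were lower by 0.29 on the log2 scale in P2rx7-/- mice, with a mean FC of 0.821 (0.983 without wt control replicate 1). For let-7g# and let-7i# the mean FCs were 1.16 and 1.34, with overlapping groups (1.33 and 1.26 without that sample), and let-7i# reached 1.63 without wt control replicate 2.

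**Figure D3:**
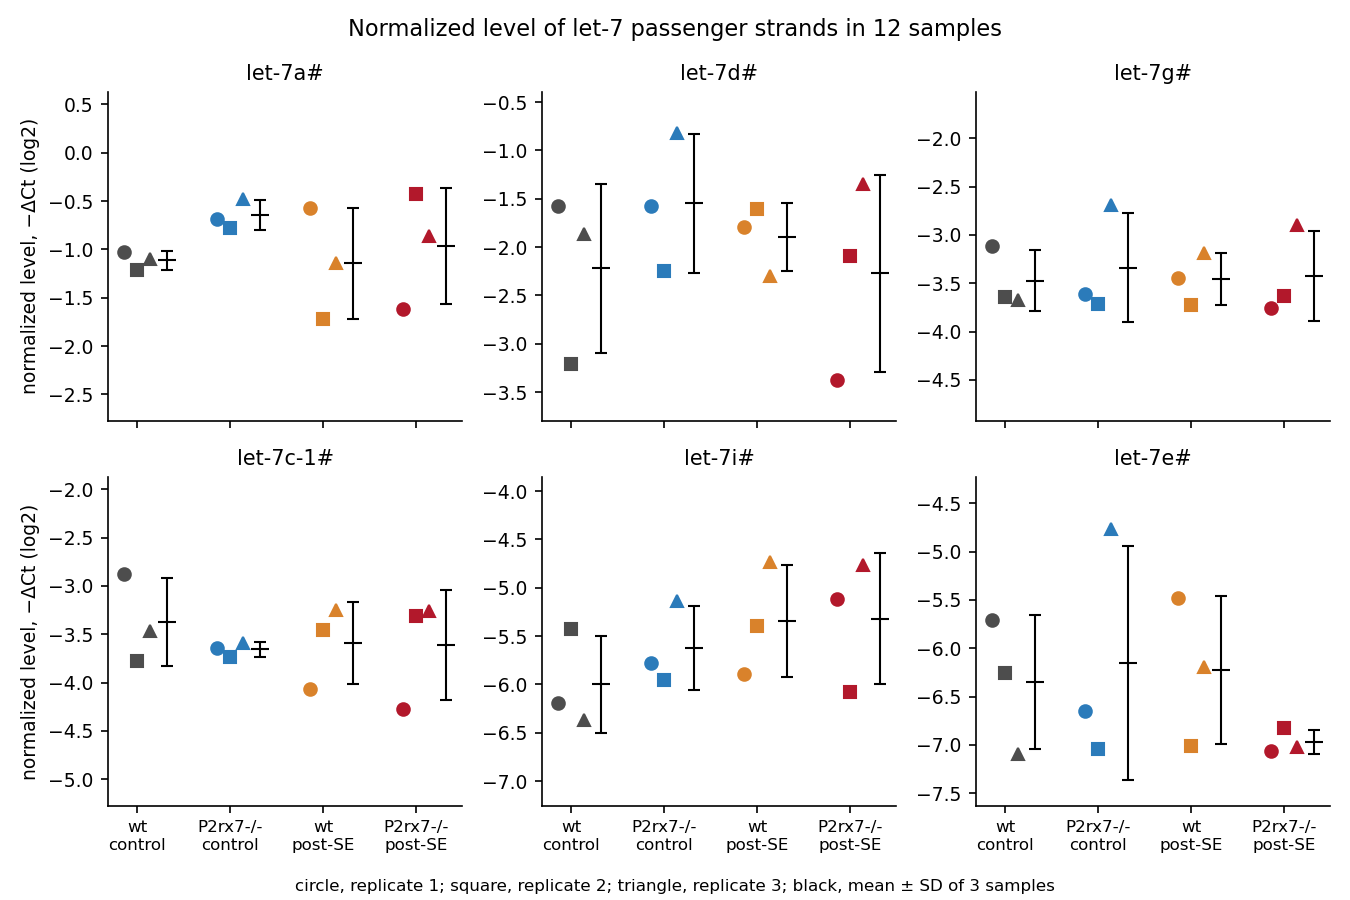
Normalized level (-ΔCt, log2, y axis) of the 6 let-7 passenger strands in the 4 groups (x axis), 1 point per sample, with circles, squares and triangles for replicates 1, 2 and 3 and a black bar for the mean ± SD of 3 samples. Each panel spans the same height on its own part of the scale, and the groups overlap in all panels except for the control groups of let-7a#.

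Status epilepticus was then compared with control in wt mice. The rule called let-7i# up, 1 of 6 members, against 23.3% of all miRNAs called up, and called 0 members down, against 12.5%. Groups without overlap occurred for 0 of 6 members, against 11% of all miRNAs. These shares are no higher than the background.

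For let-7i# the wt controls had levels of -6.19, -5.43 and -6.37, and wt mice post-SE had -5.90, -5.40 and -4.74. Post-SE replicate 3 stood clearly above all controls, replicate 2 was barely above the highest of them, and replicate 1 lay among them. The FCs were 1.07, 1.52 and 2.39, with a mean of 1.66 ± 0.673 (SD, n = 3), and the log2 difference was 0.65 (SE 0.46, adjusted p = 0.672, limma). The exact permutation test gave p = 0.2. The mean FC was 1.53 without wt control replicate 1, and the call was lost without wt post-SE replicate 3 (1.29) or wt control replicate 3 (1.46), with snoRNA202 (1.34) and with the two-group test.

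The other members had mean FCs between 0.883 (let-7c-1#) and 1.27 (let-7d#) in this comparison, and between 1.03 (let-7c-1#) and 1.56 (let-7d#) without wt control replicate 1, with let-7e# at 1.19 and 1.45. For let-7g# the 3 FCs were 1.02, 0.841 and 1.22, and for let-7a# they were 1.45, 0.658 and 0.979, on both sides of 1. At 1.56, let-7d# was thus called as well. The log2 differences of the 6 members had a median of 0.07, and those of all 335 miRNAs one of -0.09.

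In P2rx7-/- mice post-SE compared with wt controls, let-7i# was again called up, 1 of 6 members, against 20.6% of all miRNAs, and 0 members were called down, against 13.1%. Groups without overlap were seen for 0 members, against 10.1%. This comparison shares its controls with the preceding ones. P2rx7-/- mice post-SE had let-7i# levels of -5.12, -6.08 and -4.77, of which 2 lay above all wt controls and 1 among them. The FCs were 1.84, 0.947 and 2.35, with a mean of 1.71 ± 0.710 (SD, n = 3) and a log2 difference of 0.68 (SE 0.46, adjusted p = 0.712, limma). The exact permutation test gave p = 0.2. Without wt control replicate 1 the mean FC was 1.57, and the call was lost without P2rx7-/- post-SE replicate 3 (1.39) and with the two-group test. For let-7e# the mean FC was 0.654, which became 0.802 without wt control replicate 1 and, under the threshold, 0.507 without wt control replicate 3.

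In P2rx7-/- mice, status epilepticus compared with control gave a call for let-7e#, 1 of 6 members down, against 7.16% of all miRNAs, and 0 members up, against 17.9%. P2rx7-/- controls had levels of -6.64, -7.04 and -4.77, and P2rx7-/- mice post-SE had -7.06, -6.83 and -7.02. The post-SE samples were close together, and the control samples were split, with replicate 3 far above the others. The FCs were 0.532, 0.627 and 0.549, with a mean of 0.569 ± 0.0506 (SD, n = 3), where the control samples themselves lay at 0.711, 0.540 and 2.61.

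The log2 difference of let-7e# was -0.82 (SE 0.62, adjusted p = 0.998, limma), and the exact permutation test gave p = 0.3. Without P2rx7-/- control replicate 3 the mean FC was 0.925 and the call was lost, as it was with snoRNA202 (0.606) and with the two-group test. In the same comparison let-7d# had FCs of 0.282, 0.685 and 1.15 and a log2 difference of -0.73 (SE 0.61, adjusted p = 0.998, limma), with P2rx7-/- post-SE replicate 1 lowest. Its mean FC of 0.704 fell under the threshold without P2rx7-/- control replicate 2 (0.551) or P2rx7-/- post-SE replicate 3 (0.487). The remaining members had mean FCs between 0.847 (let-7a#) and 1.32 (let-7i#), and let-7i# passed 1.5 when P2rx7-/- control replicate 3 (1.58) or P2rx7-/- post-SE replicate 2 (1.63) was left out. Groups without overlap were seen for 0 of 6 members, against 6.57% of all miRNAs.

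Between genotypes post-SE, 0 of 6 members were called up, against 17% of all miRNAs, and 0 down, against 4.48%, and groups without overlap were seen for 0 members, against 5.67%. The member closest to a threshold was let-7e#, whose levels of -5.48, -7.01 and -6.19 in the wt post-SE samples overlapped with those of the P2rx7-/- post-SE samples. Its FCs were 0.562, 0.662 and 0.579, with a mean of 0.601 ± 0.0534 (SD, n = 3), just above 0.6, and the geometric mean of the same FCs gave a call down. The log2 difference was -0.74 (SE 0.62, adjusted p = 0.999, limma), and the exact permutation test gave p = 0.2. Leaving out replicate 2 of the wt or of the P2rx7-/- post-SE samples brought its mean FC under the threshold (0.461 and 0.578).

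The steadiest member was let-7g#. Its group means were -3.47 ± 0.316, -3.34 ± 0.566, -3.45 ± 0.268 and -3.43 ± 0.463 (SD, n = 3 each) for the wt controls, the P2rx7-/- controls and then the post-SE samples of either genotype. The group means thus differed by less than the SD within any group. Its 5 log2 differences lay between -0.09 and 0.14, with 95% intervals that reached from -0.92 to 0.97, so that changes of up to about that size were not detectable with 3 samples per group.

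**Figure D4:**
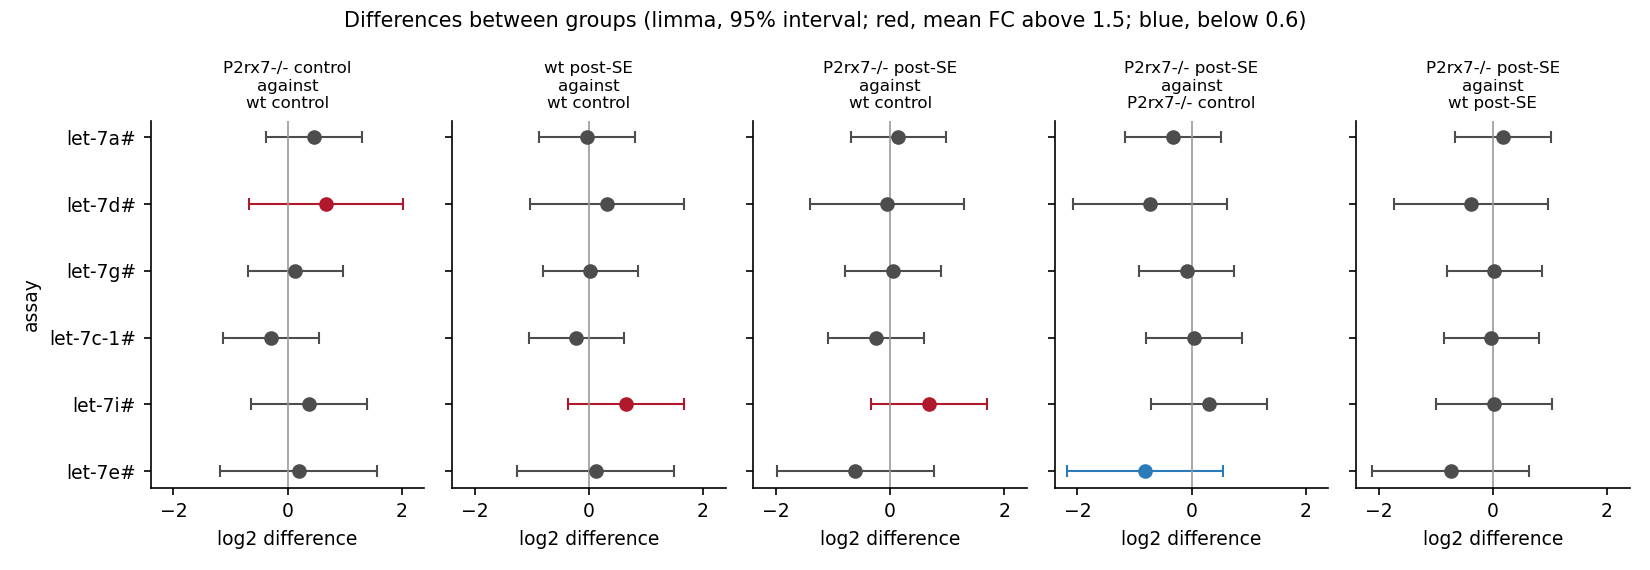
Log2 difference between groups (x axis) for the 6 passenger strands (y axis) in the 5 comparisons, 1 panel each, with the 95% interval of the limma fit, and in colour the members called by the FC rule. Every interval includes 0, and the called members are let-7d# in the first panel, let-7i# in the next 2 and let-7e# in the panel after these.

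With limma, 0 of 6 members passed an adjusted p of 0.05 in any of the 5 comparisons, and 0% of all 335 miRNAs did. At an unadjusted p under 0.05 the counts were 0 for the members and 20, 13, 12, 10 and 4 for all miRNAs, in the order of the comparisons above. For the interaction of genotype and treatment, 0 of 6 members and 0% of all miRNAs passed (8 of 335 at an unadjusted p under 0.05). The largest interactions among members were those of let-7d# (-1.05, SE 0.86, adjusted p = 0.851, limma) and let-7e# (-0.94, SE 0.88, adjusted p = 0.851, limma).

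The strand difference was also tested for a change, over all 62 pairs. With status epilepticus, averaged over genotypes, 0 of 6 let-7 pairs passed an adjusted p of 0.05, against 1.61% of all pairs, which is the pair of miR-21#, chosen here after its values were seen. Between genotypes, averaged over treatments, 0 of 6 let-7 pairs and 0% of all pairs passed. The largest changes were those of the pair let-7a, 0.67 cycles with status epilepticus (SE 0.93, adjusted p = 0.864, limma) and -1.07 cycles with the genotype (SE 0.93, adjusted p = 0.934, limma). Without wt post-SE replicate 1, the sample with a guide Ct of 10.1, these were -0.12 and -0.29.

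The pair let-7e changed by 0.64 cycles with status epilepticus (SE 0.79, adjusted p = 0.846, limma) and by -0.64 cycles with the genotype (SE 0.79, adjusted p = 0.934, limma). Without P2rx7-/- control replicate 3, where its guide was low and its passenger strand high, these were -0.13 and 0.14. The pair let-7c-1, with complete values and the smallest spread, changed by 0.0023 cycles (SE 0.43, adjusted p = 0.996, limma) with status epilepticus. For let-7d, let-7g and let-7i the changes with status epilepticus were 0.35, 0.10 and -0.37 cycles, each smaller than its SE of 0.62, 0.51 and 0.54.

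The guides themselves were measured by 9 assays, 7 of them among the 335 miRNAs. In P2rx7-/- controls compared with wt controls, 2 of these 7 were called up, against 21.2% of all miRNAs, and 2 down, against 15.5%. Those called up were let-7a (mean FC 3.82 ± 5.22, SD, n = 3), with 9.84 in P2rx7-/- control replicate 1 and 0.888 and 0.721 in the others, and let-7f (1.60 ± 1.47), with 3.30 in replicate 3 and 0.739 and 0.754 in the others. Those called down were let-7e, whose mean FC was 0.530 ± 0.358, and miR-98, with a mean FC of 0.261 ± 0.224. Both of these had a far higher Ct in P2rx7-/- control replicate 3 than in the other samples, for miR-98 24.3 against 16.5 to 20.1. For both, however, all 3 P2rx7-/- controls lay below all 3 wt controls (exact permutation test, p = 0.1 each). The FCs were 0.677, 0.791 and 0.122 for let-7e, and 0.335, 0.438 and 0.00948 for miR-98. In the reference, wt control replicate 1 lay highest, which lowers the FCs of both. It lay at 1.31 for let-7e (others 0.916 and 0.834) and at 1.99 for miR-98 (others 0.791 and 0.636). All guide FCs relative to wt controls include that sample, and calls without it are not given. Groups without overlap were seen for 2 of 7 guides, against 14% of all miRNAs. In wt mice post-SE, let-7a was called up (mean FC 19.9, with 57.3 in replicate 1) and miR-98 down (0.598). This was 1 of 7 guides up, against 23.3% of all miRNAs, and 1 down, against 12.5%. For miR-98 the FCs were 0.440, 0.634 and 0.722, the groups overlapped, and the call rests in part on wt control replicate 1. In P2rx7-/- mice post-SE relative to wt controls miR-98 was called down (0.332), 1 of 7 guides, against 13.1% of all miRNAs. There 0 guides were called up, against 20.6%. The groups of miR-98 did not overlap there, as for 1 of 7 guides, against 10.1% of all miRNAs. Relative to P2rx7-/- controls, let-7e (1.79) and miR-98 (2.97) were called up and let-7a down (0.453). This was 2 of 7 guides up, against 17.9% of all miRNAs, and 1 down, against 7.16%. These calls rest on single reference samples. For let-7a, P2rx7-/- control replicate 1 lay at 5.33 and the others at 0.481 and 0.390. For miR-98, P2rx7-/- control replicate 3 lay at 0.085 and the others at 3.00 and 3.92. Relative to wt mice post-SE, let-7a (0.191, groups without overlap) and miR-98 (0.566) were called down. This was 2 of 7 guides down, against 4.48% of all miRNAs, and 0 up, against 17%. Groups without overlap were seen for 1 of 7 guides, against 5.67%. The let-7a call rests on wt post-SE replicate 1, which lay at 13.1, where the others lay at 0.314 and 0.244. The guides let-7b (mean FCs 0.719 to 1.30), let-7c and let-7g had 0 calls. Of the 7 guides, 0 passed an adjusted p of 0.05 in any comparison (limma, lowest 0.616), and 1, miR-98, had an unadjusted p under 0.05. The guides let-7d and let-7i lacked values and could not be called. Among the 4 pairs with complete values, both strands were called for let-7e in P2rx7-/- mice post-SE compared with P2rx7-/- controls, where the guide was called up (mean FC 1.79 ± 0.887, SD, n = 3) and the passenger strand down. Both rest on the same P2rx7-/- control replicate 3.

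Of the miRNAs from the same clusters as let-7 genes, miR-99a and miR-99b were complete, while miR-100, miR-125b and miR-125a-5p had a Ct in 11, 11 and 10 of 12 samples. For miR-99b the mean FCs lay between 0.693 and 1.03 and gave no call in the 5 comparisons. For miR-99a the Ct was 25.7 in wt control replicate 1 and 13.5 to 16.8 in all other samples, and miR-100 had 23.3 in that sample. The former, miR-99a, was called up relative to wt controls in all 3 comparisons (mean FCs 12.7, 17.1 and 14.9), where that sample lowers the reference, and in P2rx7-/- mice post-SE relative to P2rx7-/- controls (1.59), where P2rx7-/- control replicate 1 lay at 0.279. In wt control replicate 1 the passenger strand let-7c-1#, from the cluster of miR-99a, had a Ct of 21.9, within its range of 21.7 to 23.3. Its normalized level in that sample, -2.88, was its highest of the 12 samples.

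The members did not follow each other closely. Over the 12 samples, Pearson correlations between the normalized levels of 2 members ran from -0.275 (let-7i# and let-7a#) to 0.656 (let-7e# and let-7g#), with a median of 0.4002 over 15 pairs and 12 of them above 0. The values are descriptions, and all share the normalizer of the sample. The candidate cluster mates let-7a# and let-7d# had a correlation of 0.496 (0.512 without wt control replicate 1).

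The miRNAs with the most similar pattern over the 12 samples, by Pearson correlation among the 335, differed between members. For let-7e# these were the passenger strands miR-376a# (0.915, Spearman rho 0.839) and miR-18a# (0.893, rho 0.811), and for let-7g# miR-805 (0.905, rho 0.741) and miR-101b (0.889, rho 0.783). For let-7c-1# these were miR-547 (0.863, rho 0.727) and miR-383 (0.844, rho 0.895), for let-7a# miR-330 (0.787, rho 0.755) and miR-28# (0.748, rho 0.783). For let-7d# they were miR-200a (0.749, rho 0.552) and miR-872 (0.737, rho 0.671), and for let-7i# miR-541 (0.745, rho 0.748) and miR-200b (0.680, rho 0.629). Picked as the highest correlations of each member, they are descriptions without a test, and no member had another member among its 2 most similar miRNAs.

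The 59 other passenger strands analyzed give a setting for the post-SE samples of P2rx7-/- mice, without a test of members against them. Relative to P2rx7-/- controls, 13 of 59 were called up and 1 down, beside 0 and 1 of 6 members, with a median log2 difference of 0.29, against -0.20 for the 6 members and 0.02 for all 335 miRNAs. Relative to wt post-SE samples, 9 of 59 were called up and 0 down, with a median of 0.17, against -0.00017 for the members and -0.01 for all miRNAs. Relative to wt controls, 10 of 59 were called up and 5 down in these samples (median 0.11), 9 up and 8 down in wt mice post-SE (-0.03), and 6 up and 7 down in P2rx7-/- controls (-0.05).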

How the data were processed

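The authors extracted total RNA from ipsilateral hippocampi, reverse-transcribed 1 μg per sample, pre-amplified it and ran TaqMan OpenArray plates. They deposited Ct values without normalization, 653 assay lines, with 1 line per miRNA assay and repeated lines for the control assays. How Ct values were called from the curves is not given in the sources used here. A deposited table of fold changes was not used. All columns were assigned by name to the labels, and the labels give pools of 2 mice, so that p-values measure the spread between pools. The number of miRNA assays with a Ct was 470 to 538 per sample.

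Levels were -ΔCt on a log2 scale, with global mean normalization over the 335 miRNAs with a Ct below 28 in all 12 samples, and FC was 2 to the power of -ΔΔCt. All miRNAs were fitted with limma 3.58.1 (R 4.3.3; 1 coefficient per group over all 12 samples, lmFit and eBayes, Benjamini-Hochberg adjusted p-values, two-sided), and so were passenger minus guide Ct values over 62 pairs, in which empty values were left out. Single assays were tested by two-sided exact permutation of 3 against 3 samples, and correlations by 100000 permutations. Further steps used scipy 1.17.1, pandas 2.3.3 and numpy 2.4.6 under Python 3.11.15, and matplotlib 3.10.9 drew the figures. The fit was tested on simulated data.

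The text names all members, all let-7 and miR-98 guides, miRNAs of let-7 clusters, control RNAs, cell type markers and the 2 miRNAs most similar to each complete member, and miR-21#, which was chosen after its values were seen. The members and lists were chosen with earlier results of these data known. Alternatives were other normalizers (all assays detected in the sample, the median, snoRNA135, snoRNA202), a Ct below 26 or no filter, the geometric mean of FCs, the methods' two-group test as a further condition, limma with a trend, the replicate number as a block, only complete pairs, and leaving out each sample.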

Additional observations from a re-analysis of the deposited data

Results flagged for a closer look

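The strand difference of let-7a had mean changes of opposite sign with status epilepticus in the genotypes, 2.16 cycles in wt mice (4.43 in controls, 6.60 post-SE) and -0.83 cycles in P2rx7-/- mice (4.86 in controls, 4.03 post-SE). Opposite signs also occurred in wt and P2rx7-/- mice for let-7e (-0.23 and 1.52), let-7d (-0.35 and 1.04), let-7g (-0.19 and 0.40) and let-7c-1 (0.10 and -0.10), but not for let-7i (-0.26 and -0.48). The let-7a pair was picked because its post-SE samples all lay above the control mean in wt mice and all below it in P2rx7-/- mice. The interaction was -2.99 cycles (SE 1.86) and did not pass the test over all pairs (adjusted p = 0.793, limma). The negative sign in P2rx7-/- mice rests on P2rx7-/- control replicate 1, where the guide let-7a had a Ct of 12.5. Without it the change was 0.40 cycles, the same sign as in wt mice, and the interaction was -1.77. Without wt post-SE replicate 1, where the guide had a Ct of 10.1, the change in wt mice was 0.60 cycles and the interaction -1.42. Other samples left out made it larger, with 3.18 cycles in wt mice and an interaction of -4.01 without wt post-SE replicate 3, and -1.59 cycles in P2rx7-/- mice and an interaction of -3.76 without P2rx7-/- control replicate 3. Without P2rx7-/- control replicate 2 the change in P2rx7-/- mice was -1.29 cycles. Single samples also overlapped, as wt post-SE replicate 3 (4.56) lay within the wt controls (4.09 to 4.62), and P2rx7-/- post-SE replicate 1 (4.67) above 2 of 3 P2rx7-/- controls. Whether the isolated guide values are failed reads cannot be checked in the deposited values.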

How the results depend on the processing

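No member passed the limma test under any normalizer, filter, trend, replicate block or sample left out, and with the replicate number as a block 0 members and 0 of all miRNAs passed. With 3 samples per group, small changes could not be resolved. The counts and signs below did not hold. Where not stated, the cause was not tested.

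Members called by the FC rule, P2rx7-/- against wt controls: 1 (123 of all 335 miRNAs), but 2 with the median (124 of all), 5 with snoRNA135 (173 of all), 0 with snoRNA202 (130 of all), 0 with the methods' two-group test as well, and 0 to 2 with 1 sample left out. Post-SE in wt mice: 1 (120 of all), but 0 with snoRNA202 (126 of all), 0 with the two-group test and 0 to 2 without 1 sample. P2rx7-/- post-SE against wt controls: 1 (113 of all), but 2 with snoRNA135 (159 of all), 2 with snoRNA202 (114 of all), 0 with the two-group test and 0 to 2 without 1 sample. P2rx7-/- post-SE against P2rx7-/- controls: 1 (84 of all), but 0 with snoRNA202 (100 of all), 0 with Ct below 26, where let-7e# drops out, 0 with the two-group test and 1 to 2 without 1 sample. Between genotypes post-SE: 0 (72 of all), but 1 with the geometric mean (61 of all) and 0 to 1 without 1 sample. Of all miRNAs, 0 passed limma in each comparison, but 0 to 1 without 1 sample in wt mice post-SE, in P2rx7-/- mice post-SE against wt controls and against P2rx7-/- controls. Of all strand differences 1 changed with status epilepticus (0 to 2 without 1 sample, 1 with the replicate block) and 0 with the genotype (0 to 1).

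A control RNA as normalizer moves all miRNAs alike. Against the main median log2 difference of -0.02, snoRNA135 gave 0.44 and snoRNA202 -0.26 for the control genotypes. Signs that reversed, P2rx7-/- against wt controls: with snoRNA202 let-7e# -0.041 and let-7g# -0.11, with snoRNA135 let-7c-1# 0.17. Post-SE in wt mice: with snoRNA202 let-7e# -0.27, let-7d# -0.072 and let-7g# -0.37, with snoRNA135 let-7a# 0.17, with all detected assays let-7g# -0.032. P2rx7-/- post-SE against wt controls: with snoRNA202 let-7a# -0.013 and let-7g# -0.11, with snoRNA135 let-7c-1# 0.19 and let-7d# 0.38, with the median let-7d# 0.075, with all detected assays let-7g# -0.0037. Between genotypes post-SE let-7c-1# gave 0.21 with snoRNA135, 0.21 with snoRNA202, 0.12 with the median and 0.0026 with Ct below 26.

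Ranges with 1 sample left out that crossed 0, P2rx7-/- against wt controls: let-7e# -0.49 to 0.65, let-7g# -0.19 to 0.33. Post-SE in wt mice: let-7e# -0.25 to 0.53, let-7a# -0.31 to 0.27, let-7c-1# -0.42 to 0.021, let-7d# -0.18 to 0.61, let-7g# -0.11 to 0.18. P2rx7-/- post-SE against wt controls: let-7a# -0.087 to 0.47, let-7c-1# -0.44 to 0.089, let-7d# -0.55 to 0.50, let-7g# -0.21 to 0.22. Against P2rx7-/- controls: let-7a# -0.58 to 0.011, let-7c-1# -0.12 to 0.38, let-7g# -0.34 to 0.25. Between genotypes post-SE: let-7i# -0.28 to 0.42, let-7a# -0.10 to 0.50, let-7c-1# -0.29 to 0.30, let-7d# -0.83 to 0.17, let-7g# -0.23 to 0.18. Strand differences with status epilepticus: let-7e -0.13 to 1.11, let-7a -0.12 to 1.28, let-7c-1 -0.17 to 0.22, let-7d -0.18 to 0.88, let-7g -0.28 to 0.37, and with the genotype: let-7e -1.10 to 0.14, let-7g -0.44 to 0.22.

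All miRNAs called by the FC rule numbered, in the order of the 5 comparisons, 195, 189, 185, 152 and 134 without the filter, which adds assays, and 7, 6, 10, 3 and 2 with the two-group test.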
